A study of Mus musculus with 2 samples.

Results

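The 10 genes described here encode proteins that decide whether pyruvate, the end product of glycolysis, is turned into lactate or enters the mitochondrion to be oxidised. They were chosen by symbol, each on its own gene ID, and are 10 of the 42392 gene IDs in the expression table. By role they are the lactate dehydrogenase genes Ldha and Ldhb, the plasma membrane lactate carriers Slc16a1 and Slc16a3, the mitochondrial pyruvate carrier subunits Mpc1 and Mpc2, the pyruvate dehydrogenase subunit Pdha1, the kinases Pdk1 and Pdk2 and the phosphatase Pdp1. Their levels are given in 1 RNA-seq library of hair follicle stem cells, the epithelial cells of the follicle bulge from which the hair regrows. The library is titled a control and placed in anagen II-III, early in the growth phase. It came from unwounded skin of female K15-CrePGR; Shh+/- mice after RU486 for 8 days. In these mice a keratin 15 promoter drives a Cre recombinase that RU486 activates, and Shh, the gene of a hedgehog ligand, is heterozygous. The other sample of the series, from telogen, the resting phase, shares this genotype and treatment and was not analysed here. The sources used here give neither the age of the mice nor how many of them the library pools.

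Pyruvate stands at a branch point. Lactate dehydrogenase reduces it to lactate in the cytosol and so regenerates the NAD that glycolysis needs, and monocarboxylate transporters move lactate and pyruvate across the plasma membrane. The mitochondrial pyruvate carrier takes pyruvate across the inner mitochondrial membrane, where the pyruvate dehydrogenase complex turns it into acetyl-CoA. Kinases switch that complex off by phosphorylating its E1 alpha subunit, and phosphatases switch it on again. In mouse skin, lactate production by hair follicle stem cells is known to bear on the start of a new hair cycle, and Ldha and Mpc1 have been studied there by deletion.

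Values are TPM, a transcript level scaled to the library total and corrected for gene length, so that genes can be compared within the library. With 1 library no value carries an error, no difference could be tested, and whether genes at close levels, such as Mpc1 and Mpc2, Ldhb and Pdha1, or Pdk1 and Pdk2, differ beyond the spread between animals is unknown. Read depth cannot be recovered from TPM. In bulk RNA, more cells of a type and more RNA per cell cannot be told apart.

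The library carried the markers of the labelled cells and some of others. All 10 bulge stem cell markers were at 1 TPM or more, against 56.2% of all protein-coding genes. These markers ranged from Nfatc1 at 16.1 TPM to Krt15 at 3364 TPM. Cd34 and Itga6 on this list encode proteins by which the cells were sorted, so their detection is no independent sign of cell type. All 4 basal keratinocyte markers were high as well, led by Krt5 at 3833 TPM, and bulge cells share them. The summed level was 4406 TPM for the bulge list and 5533 TPM for the basal list. It was 1314 TPM for 7 suprabasal keratinocyte markers, of which Krtdap held 58.5% and Sbsn 27.3%, while Flg, a late marker, was at 0.00794 TPM. It was 879 TPM for 6 fibroblast markers, 212 TPM for 5 erythroid markers and 44.8 TPM for 6 melanocyte markers. Of the fibroblast sum, Col3a1 held 32.7%, Col1a1 31.6% and Col1a2 27.0%. Dcn stood at 63.9 TPM, Lum at 11.8 TPM and Pdgfra at 1.44 TPM. The melanocyte markers ranged from Sox10 at 0.602 TPM to Mlana at 12.6 TPM. The summed level was 30.1 TPM for 6 leukocyte markers and 12.3 TPM for 6 endothelial markers. The 5 skeletal muscle markers, from a tissue rich in pyruvate enzymes, summed to 1.33 TPM and were all below 1 TPM. Of the sebaceous and adipose markers, Fabp4 stood at 12.5 TPM and the other 4 were below 1 TPM. The part of these other cells in the levels below was not tested.

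The 10 genes spanned a 346-fold range, from Ldha at 256 TPM to Slc16a3 at 0.740 TPM. Of the 10 genes, 9 reached 1 TPM, against 56.2% of all 20728 protein-coding genes. The median of the 10 was 27.9 TPM. Among the 11651 protein-coding genes at 1 TPM or more the median was 12.5 TPM, and 7 of the 10 genes lay above it, as did 28.1% of all protein-coding genes. Those 7 were both lactate dehydrogenase genes, both pyruvate carrier genes, Pdha1 and both kinase genes. Slc16a1, Pdp1 and Slc16a3 lay below.

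**Figure D1:**
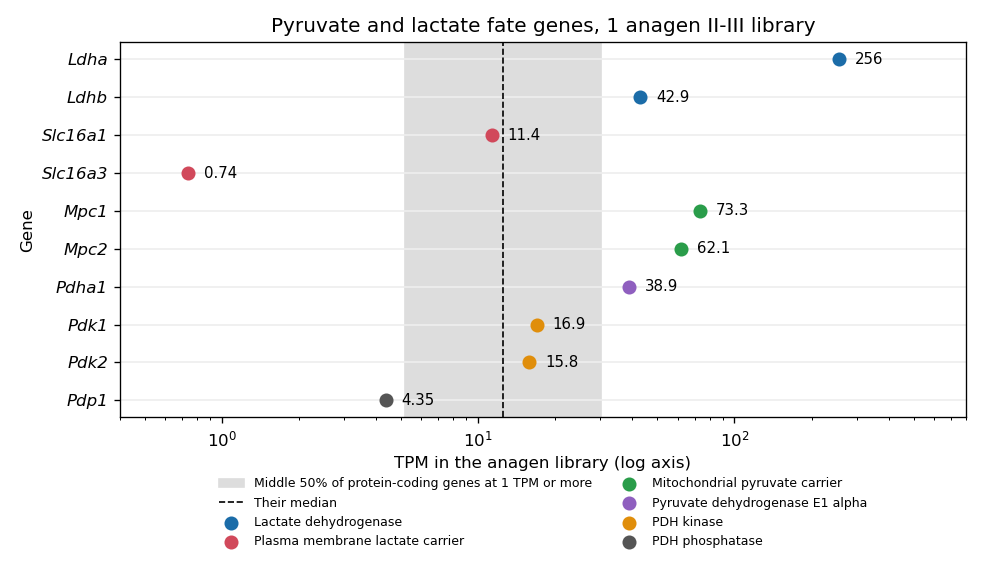
Level of each of the 10 genes in the anagen library, in TPM on a log axis, coloured by role, 1 point per gene with no error because there was 1 library. The grey band spans the middle 50% of protein-coding genes at 1 TPM or more (5.17 to 30.1 TPM) and the dashed line is their median of 12.5 TPM. Ldha lies far to the right of the band and Slc16a3 to the left of it.

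Lactate dehydrogenase RNA was mostly Ldha. Ldha (ENSMUSG00000063229; GRCm38 chromosome 7, 46842274 to 46855627) encodes the M subunit, which favours the conversion of pyruvate to lactate. It stood at 256 TPM and ranked 277th from the top among protein-coding genes. Ldhb (ENSMUSG00000030246; chromosome 6, 142490249 to 142507957) encodes the H subunit, more typical of oxidative tissue such as heart. It stood at 42.9 TPM, above 90.4% of protein-coding genes. Ldha was 5.97-fold above Ldhb and made up 85.7% of their sum. The testis subunit gene Ldhc was at 0.0145 TPM and Ldhal6b at 0.0575 TPM. Ldhd, a mitochondrial enzyme of D-lactate, was at 1.73 TPM, 24.8-fold below Ldhb. The named pseudogenes Ldha-ps and Ldha-ps2 were at 0.0269 and 0.0849 TPM, so little RNA was assigned to them. Pkm, whose enzyme makes the pyruvate, stood at 272 TPM, 1.06-fold above Ldha.

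The carriers that pass lactate through the plasma membrane were much lower, and the most abundant was neither Slc16a1 nor Slc16a3. Slc16a1 (ENSMUSG00000032902; chromosome 3, 104638664 to 104658462) encodes MCT1, a widely expressed carrier that works in both directions. It stood at 11.4 TPM, just under the median of expressed protein-coding genes. Slc16a3 (ENSMUSG00000025161; chromosome 11, 120948484 to 120959000) encodes MCT4, the low-affinity carrier of strongly glycolytic cells. It stood at 0.740 TPM, 15.3-fold below Slc16a1, and was the one member under 1 TPM. Its annotated span overlaps that of Csnk1d, which stood at 94.0 TPM. Whether the counting used strand is not given in the sources used here, so some reads in the shared stretch could belong to either gene.

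Slc16a7, which encodes the high-affinity carrier MCT2, stood at 30.8 TPM. That was 2.71-fold above Slc16a1 and 41.6-fold above Slc16a3. Shares were taken over the 4 genes of MCT1 to MCT4, with the rest of the Slc16 family left out. Of their summed TPM, Slc16a7 held 71.7%, Slc16a1 26.5%, Slc16a3 1.72% and Slc16a8, which encodes MCT3 of the retinal pigment epithelium, 0.122%. The ancillary proteins that bring these carriers to the membrane were also present. Bsg, which encodes basigin, the partner of MCT1 and MCT4, stood at 252 TPM. Emb, which encodes embigin, the preferred partner of MCT2, stood at 48.9 TPM. The sodium-coupled carrier genes Slc5a8 and Slc5a12 were at 0.167 TPM and listed at 0, and the lactate receptor gene Hcar1 was at 0.0268 TPM.

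Both subunits of the mitochondrial pyruvate carrier were expressed at like levels. Mpc1 (ENSMUSG00000023861; chromosome 17, 8283787 to 8297667) stood at 73.3 TPM and Mpc2 (ENSMUSG00000026568; chromosome 1, 165461260 to 165481218) at 62.1 TPM. The carrier needs both proteins, which work as a heterodimer. The ratio of Mpc1 to Mpc2 was 1.18. They lay above 94.8% and 93.7% of protein-coding genes and, after Ldha, were the highest of the 10. Ldha was 3.50-fold above Mpc1. A copy named Mpc1-ps was listed at 0, and the overlapping long noncoding gene 4930506C21Rik stood at 2.02 TPM.

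**Figure D2:**
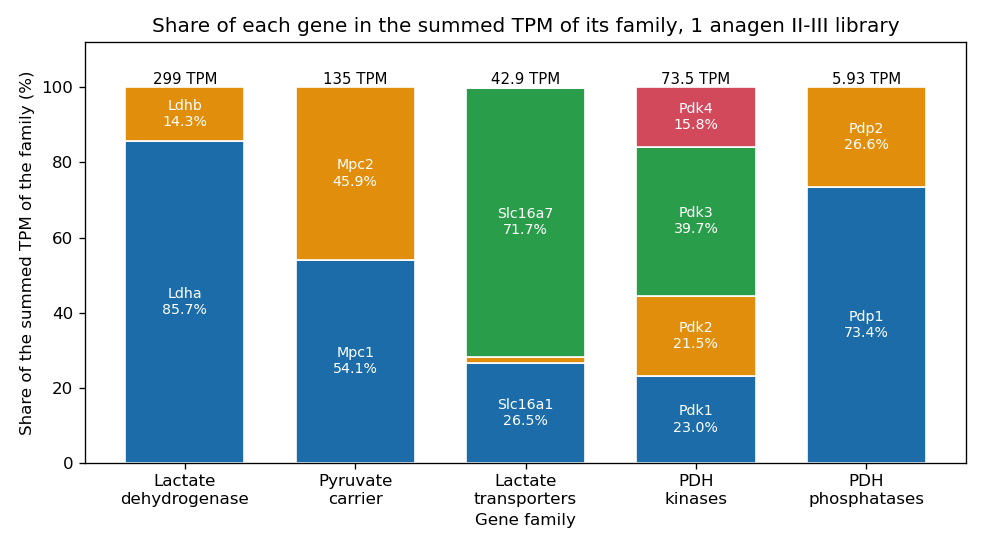
Share of each gene in the summed TPM of its family, in percent, for 5 families in the 1 anagen library, with the sum in TPM above each bar. Ldha holds most of the lactate dehydrogenase bar, Slc16a7 most of the transporter bar and Pdk3 the largest piece of the kinase bar. The thin unlabelled piece of the transporter bar is Slc16a3, and Slc16a8 is too small to see.

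The pyruvate dehydrogenase complex was expressed throughout, at levels below the pyruvate carrier. Pdha1 (ENSMUSG00000031299; chromosome X, 160122219 to 160138430), the gene of the E1 alpha subunit that the kinases phosphorylate, stood at 38.9 TPM. Its testis counterpart Pdha2 was listed at 0. Pdhb, the E1 beta subunit, stood at 27.9 TPM, so the ratio of Pdha1 to Pdhb was 1.39. Dld, the E3 subunit that other dehydrogenase complexes also use, stood at 29.4 TPM. Dlat, the E2 core, was at 16.2 TPM and Pdhx, the E3 binding protein, was lowest at 8.44 TPM. Mpc1 and Mpc2 stood 1.88-fold and 1.59-fold above Pdha1. Ldhb was 1.10-fold and Ldha 6.58-fold above Pdha1. The span of Pdha1 overlaps that of Map3k15, which was at 1.39 TPM.

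All 4 kinases that inactivate the complex were expressed, and their summed level was 12.4-fold that of the 2 phosphatases. Pdk1 (ENSMUSG00000006494; chromosome 2, 71873215 to 71903858), a known target of the hypoxia factor HIF-1, stood at 16.9 TPM. Pdk2 (ENSMUSG00000038967; chromosome 11, 95026258 to 95041371), the broadly expressed kinase, stood at 15.8 TPM, a ratio of 1.07. Both lay just above the median of expressed protein-coding genes. Pdk3 was the highest of the family at 29.2 TPM, 1.73-fold above Pdk1 and 39.7% of the kinase sum, against 23.0% for Pdk1 and 21.5% for Pdk2. Pdk4, the kinase induced by fasting, stood at 11.6 TPM and held 15.8%. The kinases together came to 73.5 TPM, 1.89-fold the level of Pdha1.

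The phosphatases that reactivate the complex were low. Pdp1 (ENSMUSG00000049225; chromosome 4, 11958183 to 11966450), the calcium-stimulated phosphatase, stood at 4.35 TPM, above 21.0% of the protein-coding genes at 1 TPM or more. Taken among all protein-coding genes, Pdp1 lay above 55.6%. Pdp2 was at 1.58 TPM and the regulatory subunit gene Pdpr at 5.09 TPM. Pdk1 alone was 3.88-fold above Pdp1, and Pdha1 was 8.94-fold above it. These are RNA levels, and no phosphorylation of the complex was measured.

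The wider pathway held 39 genes besides these 10, some of them given above. Of the 39, 29 reached 1 TPM, as did 56.2% of all protein-coding genes. The median of expressed protein-coding genes was passed by 12 of the 39 and by 28.1% of all protein-coding genes. The median over all 39 was 5.45 TPM, against 2.47 TPM over all protein-coding genes with low values kept. Among genes that supply the cofactors of the complex, the lipoate synthase gene Lias stood at 20.3 TPM. The lipoate transfer genes Lipt1 and Lipt2 stood at 2.32 and 2.04 TPM. Pcx, the pyruvate carboxylase that refills the TCA cycle, was at 4.55 TPM, 8.56-fold below Pdha1. Among transaminases that link pyruvate to alanine, Gpt was at 9.16 TPM and the mitochondrial Gpt2 at 2.2 TPM. Of the malic enzymes, which make pyruvate from malate, the cytosolic Me1 led at 25.8 TPM, with Me2 at 6.45 TPM and Me3 at 1.42 TPM. Acly, which makes cytosolic acetyl-CoA from exported citrate, stood at 36.5 TPM. Pck1 and Pklr, genes of liver gluconeogenesis and of the liver and red cell pyruvate kinase, were both listed at 0.

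**Figure D3:**
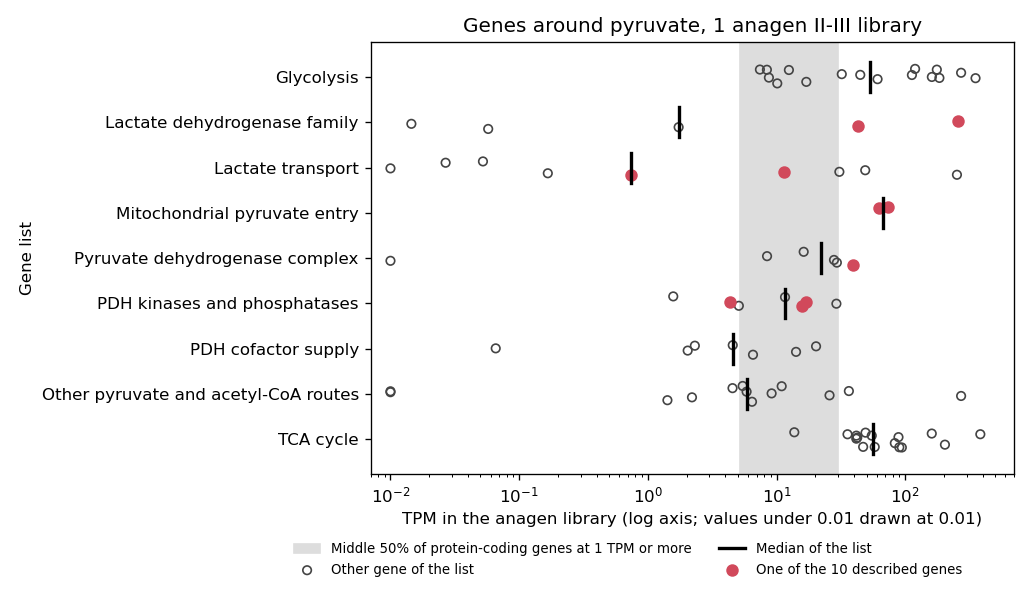
Level of every gene in 9 lists around pyruvate in the anagen library, in TPM on a log axis. Each circle is a gene, filled for the 10 described genes, the black bar is the median of the list and the grey band is the middle 50% of protein-coding genes at 1 TPM or more. Glycolysis and the TCA cycle have medians of 52.8 and 56.4 TPM, to the right of the band, and the lists that regulate or assist pyruvate dehydrogenase lie lower.

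The steps before and after were described in the same way. All 16 glycolysis genes were at 1 TPM or more, against 56.2% of all protein-coding genes. The median of these 16 genes was 52.8 TPM. The highest were Gapdh at 352 TPM and Pkm at 272 TPM, and the lowest Hk2 at 8.41 TPM and Aldoc at 7.43 TPM. All 16 TCA cycle genes were above the 12.5 TPM median, against 28.1% of all protein-coding genes. The median of the TCA cycle genes was 56.4 TPM. They ran from Sdha at 383 TPM and Mdh2 at 203 TPM down to Idh3g at 35.6 TPM and Suclg2 at 13.7 TPM. Ldha was thus within the range of the glycolytic enzymes, 1.37-fold below Gapdh. Mpc1 and Mpc2 lay within the range of the TCA cycle genes.

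Factors known to control these genes differed widely in level. Of 12 regulator genes, 11 reached 1 TPM, against 56.2% of all protein-coding genes, and the median of the 12 was 17.5 TPM. Hif1a, the hypoxia factor that drives Ldha, Pdk1 and Slc16a3, was highest at 102 TPM, and its prolyl hydroxylase gene Egln1 followed at 27.1 TPM. HIF-1 alpha is controlled mainly as a protein, which was not measured. Ppara, a driver of Pdk4, stood at 1.55 TPM and the mitochondrial coactivator gene Ppargc1a was lowest at 0.142 TPM. All 10 other hypoxia target genes listed reached 1 TPM, against 56.2% of all protein-coding genes. The median of these 10 targets was 15.6 TPM. The highest were the glucose transporter gene Slc2a1 at 32.1 TPM and P4ha1 at 24.3 TPM. The lowest were Adm at 4.19 TPM and Ankrd37 at 2.32 TPM.

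Windows before a listed start of the genes at both ends of the range, Ldha and Slc16a3, hold the same short motif. Stretches of these genes are shown for that reason. For each gene the 250 bases before the most upstream of the starts listed in a table of RefSeq promoters (GRCm38.p6) were searched on both strands for ACGTG and GCGTG, the cores that HIF can bind, and for the E-box CACGTG, which contains ACGTG on both strands. RefSeq promoter entries matched 9 of the 10 genes, all but Pdp1. ACGTG stood in 4 of the 9 windows, those of Ldha, Slc16a1, Slc16a3 and Pdk2, against 17.6% of 17491 windows of protein-coding genes. GCGTG stood in 6 of the 9, against 33.7%. CACGTG stood in Ldha (2 places), Slc16a1 and Pdk2, against 6.65%. The windows of the 9 genes were 56.4% to 76.4% G or C, against a median of 55.2%, and both motifs contain CpG. Capitals mark the matches, lower case the rest, each 5′ to 3′ on the strand of the gene. The annotated spans of Ldha, Slc16a3 and Pdk1 begin before the listed start, so for these genes the window does not precede the whole gene. For Ldha and Slc16a3, 30 bases around the matches are given. The whole windows of Slc16a1 and Ldhb, the other genes of these roles, are printed beside them. That of Pdk2, which also holds ACGTG, is not printed.
Ldha, chr7:46845649-46845678, plus strand: tgtcgcagcaCACGTGgagccactcttgca
Ldha, chr7:46845746-46845775, plus strand: gcccagcctaCACGTGggttcccgCACGTc
Slc16a3, chr11:120949033-120949062, plus strand: agcggtgACGTGcgcgggggACGTGccgcg
Slc16a1, chr3:104638414-104638663, plus strand: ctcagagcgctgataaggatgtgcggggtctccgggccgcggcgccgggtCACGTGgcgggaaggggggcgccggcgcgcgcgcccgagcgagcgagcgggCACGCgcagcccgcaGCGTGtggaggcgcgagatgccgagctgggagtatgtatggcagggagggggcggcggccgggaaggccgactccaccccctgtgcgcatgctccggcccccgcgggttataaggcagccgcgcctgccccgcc
Ldhb, chr6:142507958-142508207, minus strand: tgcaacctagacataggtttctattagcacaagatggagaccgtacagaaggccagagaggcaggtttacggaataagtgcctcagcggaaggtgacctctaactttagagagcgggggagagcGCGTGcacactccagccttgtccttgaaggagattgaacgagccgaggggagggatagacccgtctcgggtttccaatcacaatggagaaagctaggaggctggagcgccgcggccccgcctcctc
In Ldha the E-boxes begin 145 and 48 bases before the listed start, and in Slc16a3 both ACGTG cores lie within the last 27 bases before it. Ldhb holds 1 GCGTG and no ACGTG. The motif thus stands in the window of the highest gene, Ldha at 256 TPM, and of the lowest, Slc16a3 at 0.740 TPM. A match is a stretch of letters and shows no binding.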

How the data were processed

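RNA of sorted cells (integrin alpha 6 high, CD34 positive, negative for SCA1 and for markers of non-epidermal cells) was sequenced as paired ends, per the labels' protocols. The deposited values are TPM, per the file headers. The submitters' processing notes name the aligner Bowtie2 2.2.9, the quantifier RSEM 1.2.30 and the build mm10, another name for GRCm38. The sources used here do not name the gene annotation. TPM scales with everything else in a library, and genes of the mitochondrial genome held 18.8% of it here.

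The column numbered 1 was matched by name to the anagen sample, whose title alone carries that number. The other 11 columns of per-sample values were not used. The description was set on the anagen column only, and none of the others has a name that fits the telogen sample alone. Of 42661 rows, 269 repeat a gene ID with the same value, and each ID was used once. Missing symbols came from a table of gene names that matched 41523 of 42392 IDs. Where a symbol stood on several IDs, the highest value was taken. Gene types, spans and promoters came from RefSeq (GRCm38.p6), matched by symbol. Genes at 1 TPM or more were called expressed. Every value describes 1 library and no test between groups was made.

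All 10 genes and every gene of their families could be named, and of the lists for glycolysis, the TCA cycle, regulators and hypoxia the 2 highest and 2 lowest. 1 gene of these lists is not reported here. The genes and lists were chosen with earlier results of these data known. Python 3.11.15, pandas 2.3.3, numpy 2.4.6 and matplotlib 3.10.9 were used.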

Additional observations from a re-analysis of the deposited data

How the results depend on the processing

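The median of the 10 genes, 27.9 TPM, depended on what TPM was scaled over. It was 27.8 TPM when scaled over all rows of the table, 48.4 TPM without mitochondrial genes and the 50 highest genes, and 58.3 TPM over nuclear protein-coding genes. Ratios between genes do not move with such scaling. The count of genes at the detection level was 10 at 0.5 TPM (60.0% of all protein-coding genes), 8 at 5 TPM (42.6%) and 10 after scaling over nuclear protein-coding genes (60.2%), against 9 at 1 TPM (56.2%). The count above the median protein-coding gene was 9 against the median of all protein-coding genes, low values kept. That is an easier cut, which 10364 of all 20728 protein-coding genes reached. The count was 5 with the median over genes at 5 TPM or more (21.3%), against 7 at 1 TPM or more (28.1%). A pseudocount of 1 TPM gave an Ldha share of 85.4%, a Slc16a1 share of 26.3% and a Pdk1 share of 23.1%. Some alternatives were chosen after seeing the data. Adding the named pseudogenes of Ldha left its share at 85.7%. Slc16a1 held 93.9% of the sum with Slc16a3 alone, and Pdk1 held 51.6% of the sum with Pdk2 alone, because Slc16a7, Slc16a8, Pdk3 and Pdk4 then drop out of the denominator. No paired analysis was possible because 1 library was analysed. With no replicate and no read depth, the precision of low values such as Slc16a3 is unknown.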

Other observations

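The branched-chain ketoacid dehydrogenase complex, a relative of pyruvate dehydrogenase that a kinase and a phosphatase also switch, was looked at beside it, on a list chosen after the table was seen. Its E1 subunit genes Bckdha and Bckdhb stood at 21.7 and 31.9 TPM and its E2 gene Dbt at 9.20 TPM. The kinase gene Bckdk stood at 54.1 TPM and the phosphatase gene Ppm1k at 1.75 TPM, a ratio of 30.8. Kinase RNA was thus above phosphatase RNA for both complexes in this library.

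The shuttles that reoxidise cytosolic NADH without making lactate were also examined, likewise on a list chosen after the table was seen. Of 10 genes, 9 reached 1 TPM, against 56.2% of all protein-coding genes. Genes of the malate-aspartate shuttle led. Mdh2, which is also on the TCA cycle list, stood at 203 TPM and the cytosolic Mdh1 at 65.1 TPM. The carrier gene Slc25a11 stood at 61.5 TPM, Got2 at 47.0 TPM and Got1 at 18.9 TPM. The aspartate and glutamate carrier genes Slc25a12 and Slc25a13 were lower, at 10.6 and 6.05 TPM. The glycerol phosphate shuttle genes Gpd1 and Gpd2 stood at 0.274 and 1.60 TPM, and the related dehydrogenase gene Gpd1l at 9.65 TPM. In the wider Slc16 family, 8 of 14 genes reached 1 TPM, close to the 56.2% of all protein-coding genes that did. After Slc16a7, the highest were Slc16a13 at 21.6 TPM and Slc16a11 at 15.1 TPM, both above Slc16a1 at 11.4 TPM. Neither entered the transporter shares given above. Over all 14 genes Slc16a7 held 33.4% of the summed TPM and Slc16a1 12.3%.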
